A study of Homo sapiens with 6 samples.

Results

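The Hedgehog receptors, their cytoplasmic inhibitor SUFU and the GLI transcription factors were examined in the hepatocellular carcinoma line SNU-449, of human origin, through 27 probe sets of 8 genes, out of 54613 probe sets and 19775 genes on the arrays. The members are all probe sets whose platform annotation names exactly 1 of GLI1, GLI2, GLI3, PTCH1, SMO, SUFU, HHIP and GPR161, a rule that uses names and no values. Every group was SNU-449 grown in RPMI-1640 with fetal bovine serum, penicillin and streptomycin. In 3 arrays the cells were labelled as carrying the empty vector, with genotype Ctrl, and in 3 arrays as carrying USP48, with genotype USP48 OE. USP48 is a ubiquitin-specific protease, delivered by a lentivirus in serum-free medium with HiTransG A and followed by puromycin selection of a stable strain. The labels do not say which promoter drives the transgene, whether the strain is a pool or a clone, or whether replicates are separate cultures. P-values therefore set each difference only against the spread between these arrays, which may be technical. The arrays measure RNA of a whole culture, so less RNA per cell and fewer cells holding that RNA cannot be told apart.

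Hedgehog signalling starts when a secreted ligand binds PTCH1, which otherwise holds the membrane protein SMO inactive. SMO then acts at the primary cilium to free the GLI factors from SUFU, and the GLI proteins switch target genes on. PTCH1, HHIP and GLI1 are themselves targets of the pathway, so their transcripts are commonly read as its output. In liver the pathway is known from regeneration and fibrosis, and GLI1 protein is a reported substrate of USP48. Protein stability and ubiquitin were not measured on these arrays.

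The overexpression label was checked first. Of 5 USP48 probe sets, 0 were called higher in the arrays labelled USP48 and 2 were called lower, so groups are named by their labels and every direction below refers to labels. Probe set 220079_s_at was at 7.88 ± 0.05 in the empty vector and 7.06 ± 0.12 in the USP48-labelled arrays (mean ± SD, n = 3 each, here and below) on the log2 scale. The other one called lower, 220078_at, had a difference of −0.63. The remaining 3 were not called and went both ways. Among them 225925_s_at, the USP48 probe set with the highest mean signal, was at −0.13, 232621_at at −0.25 and 229812_at at 0.24. Where these probe sets lie relative to the delivered sequence was not analysed here. The 18 hybridization controls, labelled RNAs added before hybridization, were higher by 0.29 on the log2 scale in the USP48-labelled arrays, and the 5′ minus 3′ difference of GAPDH ran from −0.32 to −0.44 in the empty vector arrays and from −0.45 to −1.31 in the USP48-labelled arrays, with replicate 3 the lowest (exact permutation p = 0.1 for both, two-sided, the smallest that 3 against 3 arrays allow). The part of either in the results below was not tested. Among markers of the labelled cell type, all 4 probe sets of the hepatocyte gene ALB lay below the array median on every array (0.78 to 2.25), as did 17 of 21 hepatocyte marker probe sets, and as did 4 of 7 epithelial ones (those of CDH1 and KRT19), while the keratin KRT18 averaged 11.8 in both groups. Of 8 leukocyte marker probe sets 6 lay below the median on every array, all 5 of PTPRC among them, while CD3E read 4.32 to 4.89 and lay above it on every array, and 0 were called. Of 9 endothelial marker probe sets 7 lay below it on every array, and 1 was called higher and 1 lower. Of 15 mesenchymal marker probe sets 6 were called higher, of FN1 and ZEB1, and 3 lower, of VIM and CDH2. The called ZEB1 probe set, 239952_at, lay below the median of every array. Of 7 epithelial marker probe sets 2 were called lower, of CDH1 and EPCAM. Over all probe sets 24.3% were called. The part of these marker differences in the results was not tested.

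Of the 8 genes, 4 had a probe set that was lower in the USP48-labelled arrays, and no member passed the test as higher. Of the 27 probe sets, 5 were called lower, 0 were called higher and 22 were not called (limma, Benjamini-Hochberg adjusted p under 0.05 over all probe sets). Across all probe sets 24.3% were called, 13.8% lower and 10.6% higher. The members' 18.5% called, all of them lower, is below the total share over the whole array and above the share called lower. Whether these shares differ was not tested. The 5 calls belonged to GLI2 (2 probe sets), PTCH1, SUFU and GPR161 (1 each). GLI1, GLI3, SMO and HHIP had no called probe set. The median difference of the members was −0.03 on the log2 scale, against 0.03 over all probe sets. As deposited, the values gave 5768 probe sets higher and 7519 lower, whereas scaling on the hybridization controls gave 1826 higher and 21292 lower, with 13 member probe sets lower and the median of all probe sets at −0.26.

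All 5 called probe sets had a mean signal above the median of all probe sets. On all 6 arrays, 11 of the 27 member probe sets lay below the array median, and 0 of those 11 were called. Of the 16 member probe sets above that median, 5 were called lower and 0 higher. Among all probe sets above it, 21.2% were called lower and 16.3% higher. The empty vector and USP48-labelled arrays did not overlap for 9 member probe sets (33.3%), 7 of them lower and 2 higher, against 38.2% of all probe sets. No detection call was used, so a dim probe set that was not called says little about its transcript.

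**Figure D1:**
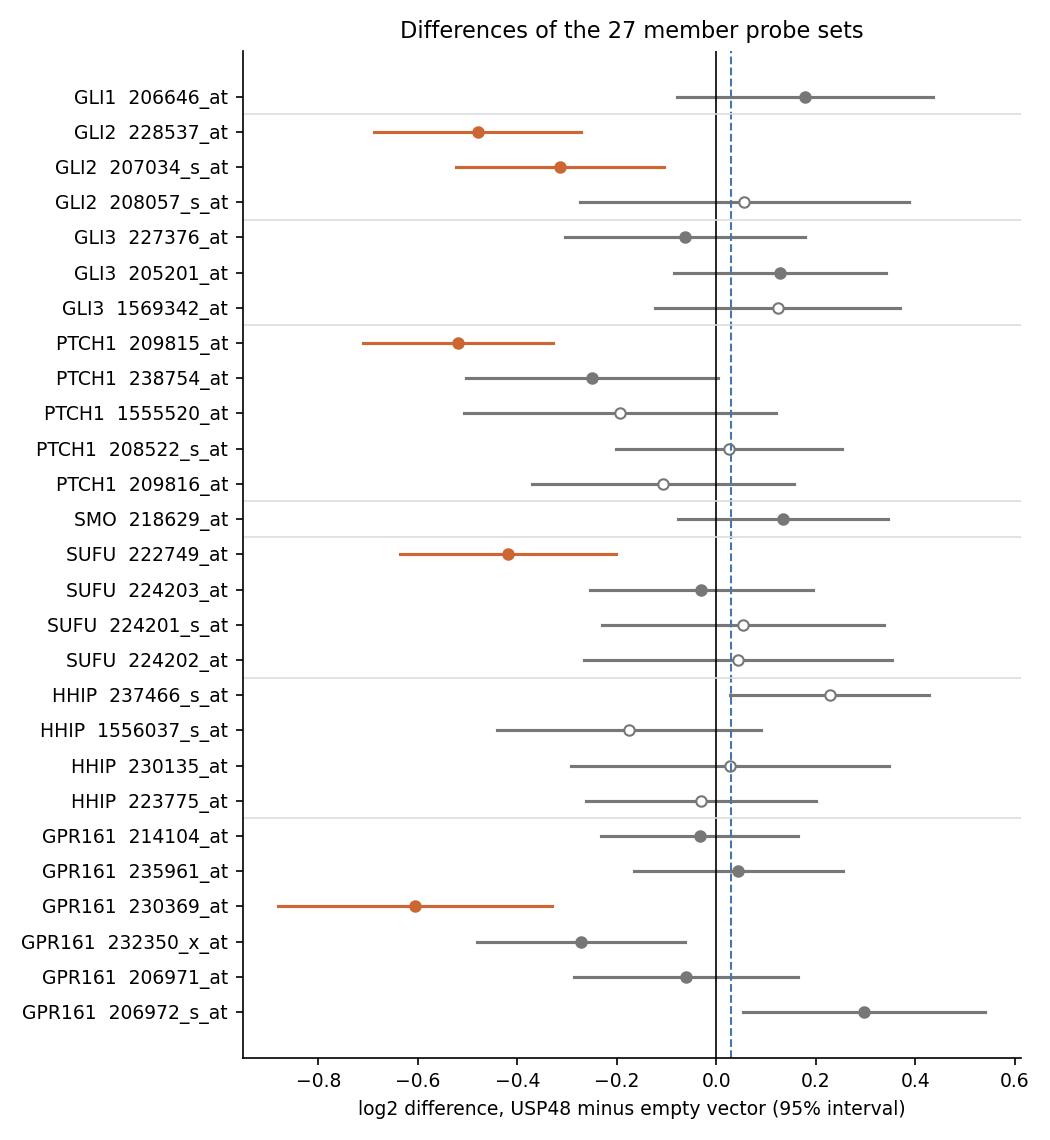
Log2 difference (USP48-labelled minus empty vector arrays, x axis) of the 27 member probe sets, grouped by gene, with 95% intervals from limma. Orange marks the 5 called lower, grey those not called, open points the 11 below the array median on all 6 arrays, and the dashed line the median of all probe sets at 0.03.

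The receptors split between PTCH1, which was lower by 1 probe set, and SMO, which did not pass the test. PTCH1 is the ligand receptor that restrains SMO and one of the pathway's own targets. Its probe set 209815_at read 6.20, 6.12 and 6.15 on the log2 scale in empty vector replicates 1 to 3 and 5.62, 5.68 and 5.61 in USP48-labelled replicates 1 to 3. All 3 USP48-labelled arrays lay below all 3 empty vector arrays, and the spread within each group was small. The mean of PTCH1 fell from 6.16 ± 0.04 to 5.64 ± 0.04. Its difference was −0.52 (SE 0.09, adjusted p = 0.00123 by limma), which is 1.43-fold lower (95% interval 1.26 to 1.64).

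The other 4 PTCH1 probe sets did not pass, with log2 differences from −0.25 to 0.03. Of these, 238754_at was at −0.25 (limma adjusted p = 0.148) with groups that did not overlap, and 1555520_at, 209816_at and 208522_s_at were below the median of every array. Averaged over its 5 probe sets PTCH1 did not pass (−0.21, limma adjusted p = 0.0811). Whether the probe sets of PTCH1 differ among themselves was not tested. A mix of called and uncalled probe sets was common on these arrays, and it does not show that the probe sets differ. Of 5257 genes with several probe sets and at least 1 call, 4343 also had a probe set that was not called. Probe sets called in both directions were found for 585 genes.

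The start regions of PTCH1, GLI2 and SUFU are shown as those of a receptor, a GLI factor and the GLI inhibitor, each with a called probe set. GPR161, also with a called probe set, has 5 windows without a match, which are not printed. Windows from 250 bases before to 50 after annotated starts, from RefSeq on GRCh38.p14, were available for 6 of the 8 members (15 windows, 5 each for PTCH1 and GPR161). They were searched on both strands for the GLI consensus GACCACCCA and for its last 7 letters, CCACCCA, which every consensus match also holds. The consensus occurred in 1 of the 15, a PTCH1 window, and in 0.236% of 35116 windows of the same length. The 7-letter part occurred in that window and in 1 of GLI2, against 9.19% of all windows. In the PTCH1 window the match lies 172 to 164 bases before the start, on the strand opposite to the gene. The 250 bases before the start are printed 5′ to 3′ on the strand of the gene. Capitals mark the consensus in PTCH1 and the 7-letter part in GLI2. SUFU had neither, which says only that these letters are not in its window.
PTCH1, chr9:95509267-95509516, minus strand: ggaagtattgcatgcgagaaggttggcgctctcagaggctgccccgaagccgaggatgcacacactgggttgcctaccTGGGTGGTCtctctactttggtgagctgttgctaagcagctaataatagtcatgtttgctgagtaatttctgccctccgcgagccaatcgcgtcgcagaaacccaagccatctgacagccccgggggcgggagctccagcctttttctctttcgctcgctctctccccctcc
GLI2, chr2:120735618-120735867, plus strand: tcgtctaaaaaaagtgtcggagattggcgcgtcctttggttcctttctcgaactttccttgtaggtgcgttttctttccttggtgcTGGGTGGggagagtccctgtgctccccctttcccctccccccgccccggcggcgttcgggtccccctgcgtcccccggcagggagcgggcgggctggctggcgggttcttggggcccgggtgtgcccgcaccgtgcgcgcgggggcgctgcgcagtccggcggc
SUFU, chr10:102503722-102503971, plus strand: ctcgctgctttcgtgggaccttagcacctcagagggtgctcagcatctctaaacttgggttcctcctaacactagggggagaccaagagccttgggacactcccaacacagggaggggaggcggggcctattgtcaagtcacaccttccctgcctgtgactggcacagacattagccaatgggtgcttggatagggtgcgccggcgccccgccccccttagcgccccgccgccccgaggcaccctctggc

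A match is a description of letters and not a binding site, and which start is used in SNU-449 was not measured. The PTCH1 window above belongs to 1 of 5 annotated starts, and the files do not tie a probe set to a start. Bound GLI protein was not measured.

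SMO, the transducer that PTCH1 restrains, has 1 probe set. It read 4.69, 4.81 and 4.86 in the empty vector arrays and 4.98, 4.96 and 4.82 in the USP48-labelled arrays. The groups overlapped, and the difference of 0.13 did not pass (95% interval −0.08 to 0.34, limma adjusted p = 0.362). Scaling on the hybridization controls put SMO at −0.16.

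HHIP, a membrane protein that binds and sequesters Hedgehog ligands, was dim throughout. All 4 of its probe sets lay below the median of every array, and 0 passed. Its highest-reading probe set, 237466_s_at, read 2.47, 2.32 and 2.46 in the empty vector arrays and 2.67, 2.67 and 2.60 in the USP48-labelled arrays. The groups did not overlap and the difference was 0.23 (95% interval 0.03 to 0.43, limma adjusted p = 0.0980), but −0.07 after scaling on the hybridization controls. The other 3 were between −0.18 and 0.03.

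GPR161, a receptor of the primary cilium that raises cyclic AMP and favours the repressor form of GLI3, gave mixed values over its 6 probe sets. Probe set 230369_at read 4.60, 4.64 and 4.34 in the empty vector arrays and 3.71, 3.96 and 4.10 in the USP48-labelled arrays. These groups were separate. The difference of −0.61 (SE 0.12, adjusted p = 0.00452 by limma) was the largest difference among the members, 1.52-fold lower with a 95% interval of 1.26 to 1.84. The 2 probe sets with the highest mean signal were at −0.03 (214104_at) and 0.04 (235961_at), and their intervals, −0.23 to 0.16 and −0.17 to 0.25, do not reach that size. Probe set 206972_s_at was at 0.30 (limma adjusted p = 0.0769) and 232350_x_at at −0.27 (limma adjusted p = 0.0611), each with groups that did not overlap. Scaling on the hybridization controls put 206972_s_at at 0.0035 and brought 232350_x_at to −0.57 (limma adjusted p = 0.00101). Thus 1 of 6 GPR161 probe sets was called, and with 1 probe set per gene, the one with the highest mean, GPR161 did not pass (limma adjusted p = 0.802). A filter on dim probe sets brought 232350_x_at past the threshold (limma adjusted p = 0.0389), as did leaving out USP48 replicate 3 (limma adjusted p = 0.0446).

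SUFU, the protein that binds GLI factors and keeps them inactive in the cytoplasm, was lower by 1 of 4 probe sets. That probe set, 222749_at, read 5.86, 6.04 and 5.77 in the empty vector arrays and 5.46, 5.51 and 5.43 in the USP48-labelled arrays. Every USP48-labelled array was below every empty vector array. The SUFU level fell from 5.89 ± 0.14 to 5.47 ± 0.04. Its difference of −0.42 (SE 0.10, adjusted p = 0.00945 by limma) is 1.34-fold lower (95% interval 1.15 to 1.55). The other 3 probe sets were between −0.03 and 0.05, 2 of them below the median of every array, and the mean over all 4 did not pass (−0.09, limma adjusted p = 0.391).

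Among the GLI factors, GLI2 was lower and neither GLI1 nor GLI3 passed. GLI2 is the main transcriptional activator downstream of SMO. Probe set 228537_at read 6.48, 6.55 and 6.51 in the empty vector arrays and 5.92, 6.14 and 6.05 in the USP48-labelled arrays. The arrays of the 2 groups were apart. The GLI2 level fell from 6.51 ± 0.03 to 6.04 ± 0.11. Its difference of −0.48 (SE 0.09, adjusted p = 0.00348 by limma) is 1.39-fold lower (95% interval 1.21 to 1.61).

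A second GLI2 probe set, 207034_s_at, gave a smaller difference in the same direction. It read 5.05, 5.08 and 4.85 in the empty vector arrays and 4.70, 4.67 and 4.67 in the USP48-labelled arrays, so that the groups did not overlap. The difference was −0.31 (SE 0.09, adjusted p = 0.0334 by limma). This call was lost without empty vector replicate 1 (limma adjusted p = 0.112) or 2 (0.127), without USP48 replicate 1 (0.0712), 2 (0.0764) or 3 (0.0662), and after quantile normalization (0.0579). The remaining GLI2 probe set, 208057_s_at, was below the median of every array and at 0.06 (limma adjusted p = 0.835). Averaged over the 3, GLI2 was at −0.25 (limma adjusted p = 0.0446), the 1 member gene that passed in that form.

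GLI1, an activator that is also a target of the pathway and the reported substrate of USP48, has 1 probe set, 206646_at. It read 4.69, 4.62 and 4.52 in the empty vector arrays and 4.71, 4.63 and 5.02 in the USP48-labelled arrays. USP48 replicate 3 was the highest of the 6 arrays, and the other two USP48-labelled arrays lay beside the empty vector values. The difference of 0.18 did not pass (95% interval −0.08 to 0.43, limma adjusted p = 0.319), and it was −0.12 after scaling on the hybridization controls. Without USP48 replicate 3, the array with the lowest GAPDH 5′ minus 3′ value (−1.31), it was 0.060, and the part of RNA quality in it was not tested. A change of GLI1 RNA was not detectable with these 6 arrays.

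GLI3, which acts mostly as the pathway's transcriptional repressor, did not pass by any of 3 probe sets. The one with the highest mean signal, 227376_at, read 6.46, 6.43 and 6.51 in the empty vector arrays and 6.20, 6.58 and 6.43 in the USP48-labelled arrays. The USP48-labelled arrays spread on both sides of the empty vector arrays, and the difference was −0.06 (95% interval −0.30 to 0.18, limma adjusted p = 0.734). Only after scaling on the hybridization controls did this probe set pass, at −0.36 (limma adjusted p = 0.0343), while 205201_at and 1569342_at, at 0.13 and 0.12 as deposited, were at −0.17 there without passing.

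**Figure D2:**
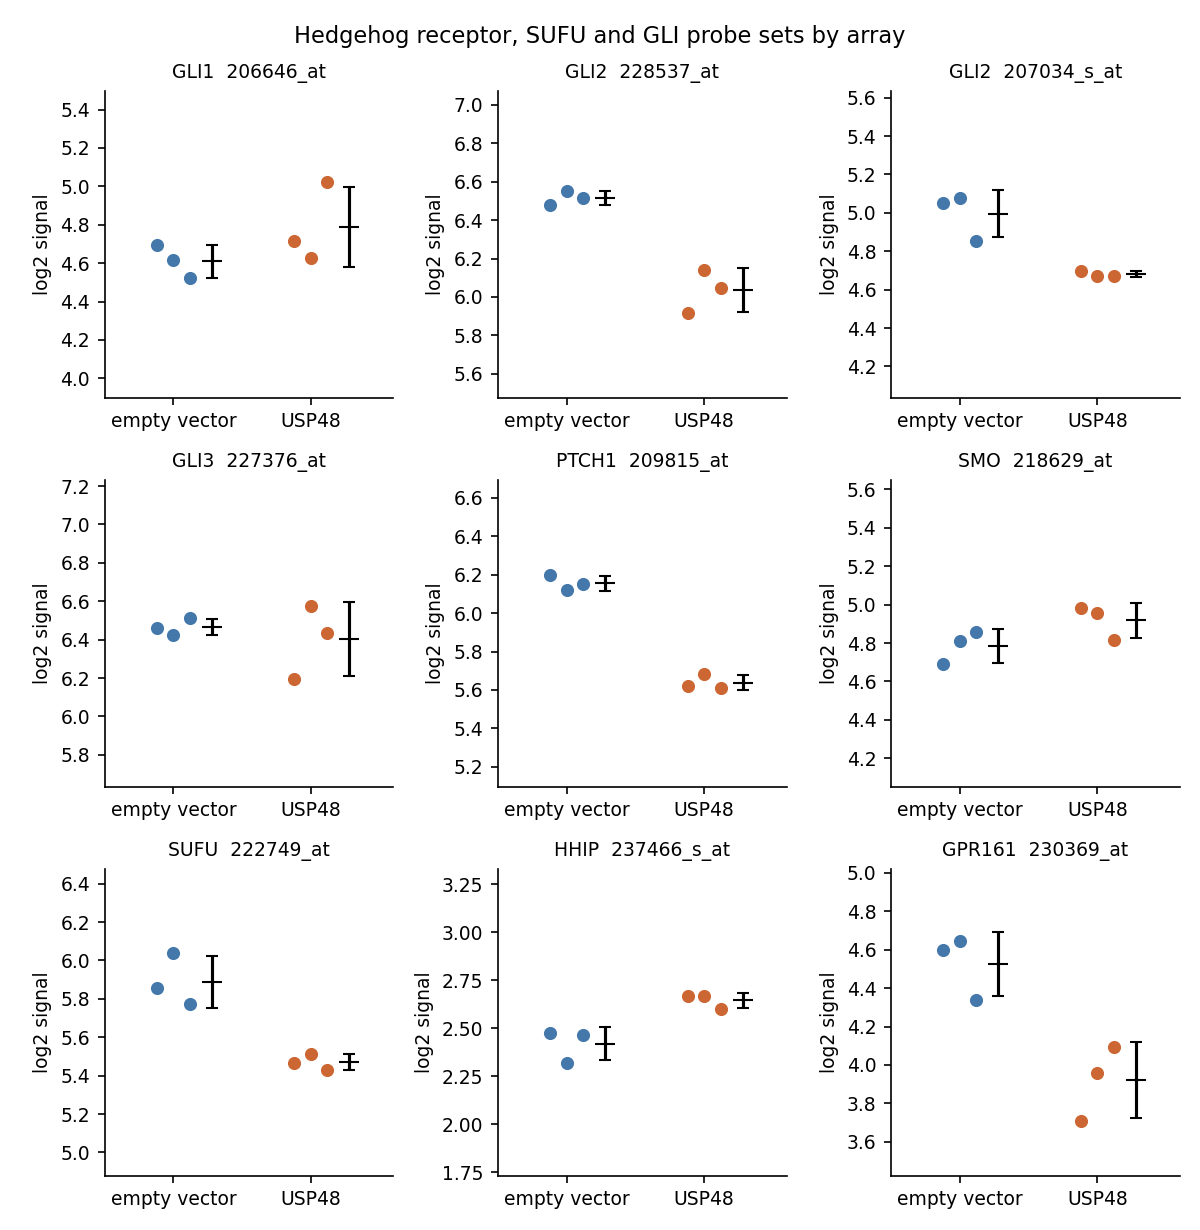
Log2 signal (y axis, each panel spanning the same range of 1.6) in the 3 empty vector (blue) and 3 USP48-labelled (orange) arrays for the 5 called member probe sets and the highest-reading one of GLI1, GLI3, SMO and HHIP; black bars are mean ± SD. GLI2, PTCH1, SUFU and GPR161 are separated between groups, whereas GLI1, GLI3 and SMO overlap and HHIP lies higher in the USP48-labelled arrays without passing the test.

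Set beside probe sets of like level, the called members were moderate. All 27 member probe sets lay between the 5th and the 95th percentile of the differences of all probe sets in their bin of level, each bin holding 1365 or 1366 probe sets, and 10 lay below the 25th percentile, the 5 called ones among them. For PTCH1 209815_at, the 5th percentile at its level was −1.06 and the 25th −0.35, against its own −0.52.

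**Figure D3:**
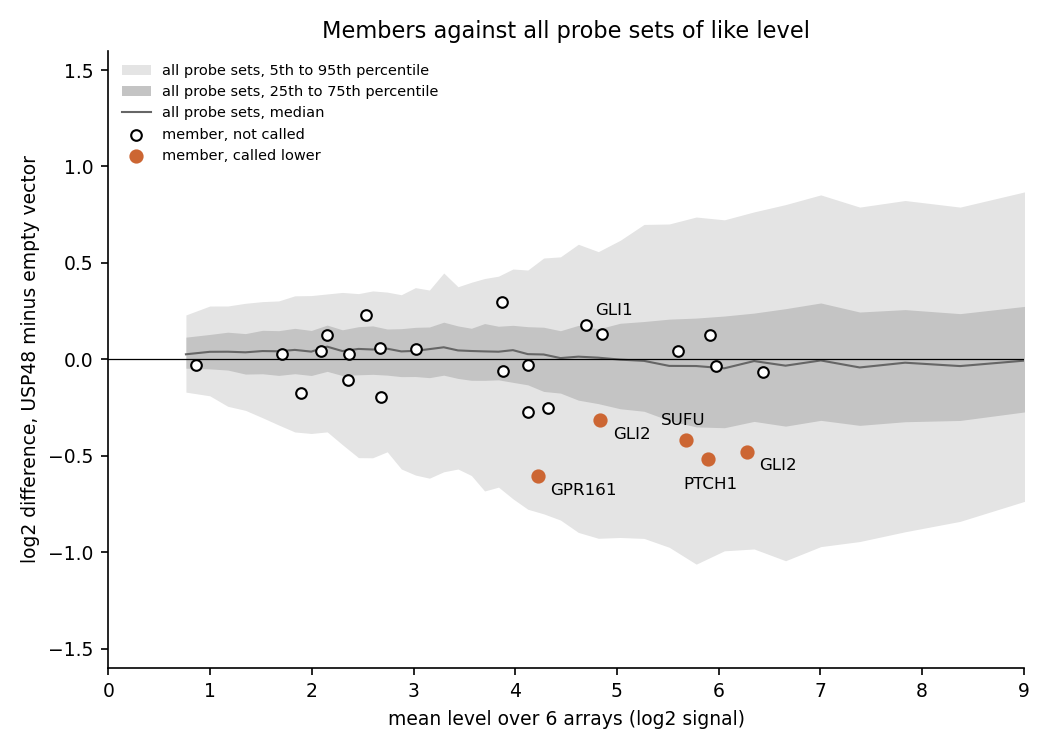
Log2 difference (y axis) against the mean log2 signal over the 6 arrays (x axis) for the 27 member probe sets, over bands that hold 5% to 95% and 25% to 75% of all probe sets of like level. The 5 called members (orange, named) lie below the inner band and inside the outer one.

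The rest of the pathway was described through 4 lists with 41 measured genes and 115 probe sets, of which 10 were called higher and 20 lower (26.1% called). That is close to the 24.3% over all probe sets. Of 8 probe sets for the ligands SHH, IHH and DHH and for the release proteins HHAT, DISP1 and SCUBE2, 0 were called in either direction and all 8 had a difference above 0 as deposited, with a median of 0.20, where scaling on the hybridization controls lowers every difference by 0.29. The 2 genes with the highest mean signal were DISP1, which exports the lipid-modified ligand, at 0.19 (limma adjusted p = 0.191) and IHH at 0.01 (limma adjusted p = 0.953). After that scaling these were −0.10 and −0.28. With the replicate number as a block 1 probe set of this list was called higher, and with the mean of the probe sets of each gene 1 gene.

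Of 11 probe sets for the co-receptors CDON, BOC, GAS1 and LRP2, 1 was called lower and 0 higher (9.1% called, against 24.3% of all probe sets). On every array 6 of the 11 lay below the median. The called probe set belonged to CDON, which presents ligand to PTCH1. Its probe set 227526_at fell from 3.41 ± 0.24 to 2.55 ± 0.23 (difference −0.86, adjusted p = 0.00142 by limma), but it was below the median of every array, and the other CDON probe sets were not called. The mean of the CDON probe sets did not pass (−0.21, limma adjusted p = 0.0862).

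The list of signal transduction and GLI turnover held the largest falls of the pathway. Of its 57 probe sets, 6 were called higher and 14 lower (35.1% called, against 24.3% of all probe sets), with a median of 0.01. After scaling on the hybridization controls 1 was higher and 25 were lower. As deposited, 37 of the 57 had a mean above the median of all probe sets, and 11 of these were called lower and 6 higher. Among all probe sets above it, 21.2% were called lower and 16.3% higher. CSNK1A1 alone held 13 of the 57 probe sets and 6 of the 20 calls. Whether these shares differ was not tested. CUL3, the cullin that with SPOP directs GLI2 and GLI3 to degradation, had the strongest fall. For CUL3 201371_s_at the level went from 8.45 ± 0.05 to 6.35 ± 0.30 (difference −2.10, SE 0.14, adjusted p = 3.76e-06 by limma). Of the other CUL3 probe sets, 201370_s_at was also called lower (−1.24) and 201372_s_at was not called (−0.11, limma adjusted p = 0.508). Both lay below the median of every array. The 3 probe sets of the CUL3 adaptor SPOP were not called (0.12 to 0.25). GSK3B, a kinase that marks GLI factors for processing, fell from 7.73 ± 0.09 to 5.87 ± 0.24 by 226191_at (difference −1.86, adjusted p = 4.09e-06 by limma), and 3 of its 5 probe sets were called lower.

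The kinases that phosphorylate GLI factors together with GSK3B gave calls that depended on the probe set. PRKACB, a catalytic subunit of protein kinase A, was lower by probe set 202741_at (difference −0.91, adjusted p = 0.000628 by limma), while its other 2 probe sets were not called and their mean with it did not pass (−0.16, limma adjusted p = 0.272). Casein kinase CSNK1A1 had 13 probe sets, 5 called lower and 1 higher. The higher one, 1556006_s_at, had the largest difference at 1.14 (limma adjusted p = 5.94e-05), and the mean of the 13 was at −0.09 (limma adjusted p = 0.428). In this list 3 genes had probe sets called in both directions, CSNK1A1, BTRC and PRKAR1A. CSNK1A1 is named by the size of its difference, and the others were singled out after their values were seen.

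Most probe sets of genes reported as GLI targets were not called. Of 39 probe sets, 4 were called higher, 5 lower and 30 neither (23.1% called, near the 24.3% of all probe sets), with a median of 0.12. Scaling on the hybridization controls gave 2 higher and 10 lower. As deposited, 20 of the 39 lay below the median of every array. Of the 17 with a mean above the median of all probe sets, 5 were called lower and 3 higher. Among all probe sets above it, 21.2% were called lower and 16.3% higher. IGFBP6, which binds insulin-like growth factors, rose from 9.33 ± 0.10 to 11.0 ± 0.67 (difference 1.69, adjusted p = 0.000638 by limma), with readings of 11.2, 11.6 and 10.3 in the USP48-labelled arrays. The transcription factor FOXL1 rose by 0.70 by probe set 243409_at (limma adjusted p = 0.000523). Its other probe set, 216572_at, was not called (0.23, limma adjusted p = 0.157) and lay below the median of every array. FOXM1, a driver of mitotic gene expression, fell from 7.88 ± 0.11 to 6.88 ± 0.11 (adjusted p = 4.75e-05 by limma). The survival factor BCL2 was lower by probe set 203685_at (difference −0.66, adjusted p = 0.00474 by limma), while its other 3 probe sets were not called and the mean of the 4 did not pass (−0.14, limma adjusted p = 0.172). These genes have many other regulators.

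**Figure D4:**
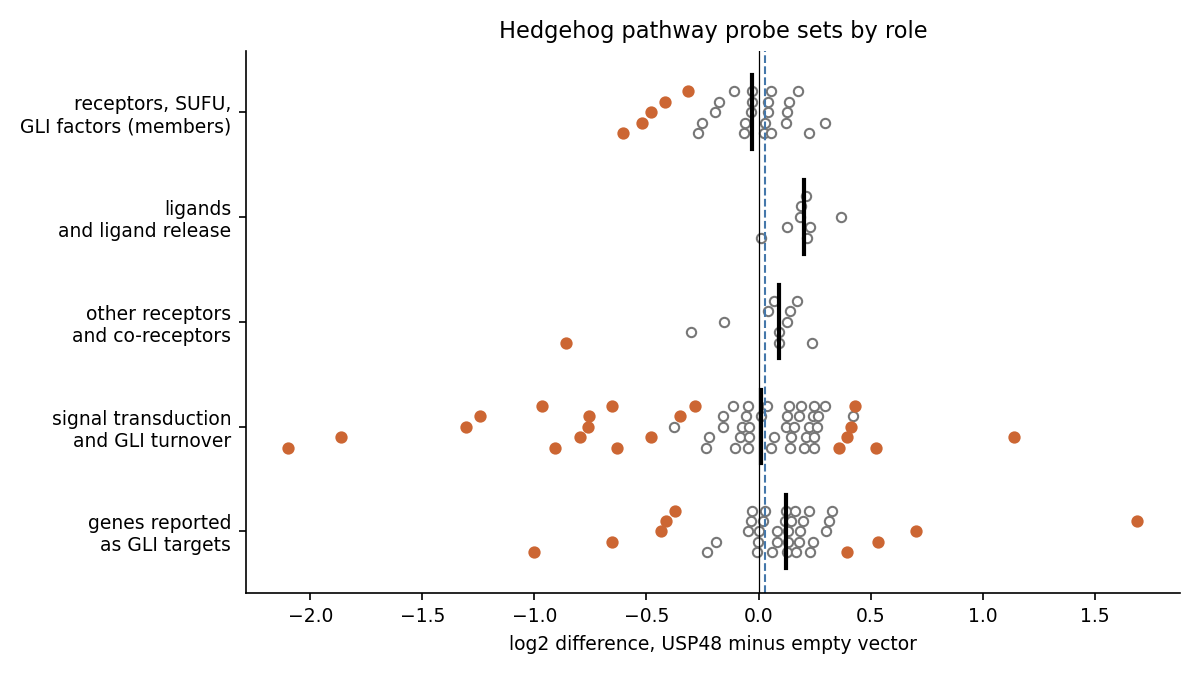
Log2 difference (x axis) of each probe set of the members and of the 4 other Hedgehog lists (rows); filled points were called, open points were not, black bars are list medians and the dashed line is the median of all probe sets. CUL3 and GSK3B lie farthest to the left, at −2.10 and −1.86, and IGFBP6 farthest to the right, at 1.69.

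The genes whose pattern over the 6 arrays was most like that of a member were sought among 23087 probe sets that name 1 gene and lie above the median level, by Pearson's r. For PTCH1 209815_at they were FSCN1, UBN2 and PTK2 (r = 0.999 each), for GLI2 228537_at TBXA2R, SULF2 (0.999 each) and UNKL (0.998), and for GLI2 207034_s_at SLC25A20 (0.999), ALOX12-AS1 and TMEM129 (0.998 each). For SUFU 222749_at they were POLA2, DHTKD1 (0.997 each) and DIP2C (0.996), and for GPR161 230369_at UBR4, PMEPA1 (0.997 each) and MAN1A2 (0.996). For GLI1 they were HMOX1 (0.989), COPS7B and CHCHD7 (0.988 each). Such patterns were common: 2036 probe sets had r above 0.95 with PTCH1 209815_at, 1520 with GLI2 228537_at and 55 with GLI1. The r values describe 6 arrays and carry no test.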

How the data were processed

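RNA of 6 Affymetrix arrays was analysed, 3 per group, with groups and replicate numbers from the titles. The authors deposited log2 values, 1 per probe set and array, produced by RMA, whose settings are not stated, per the submitters' processing notes. They start at 0.19, which is low for RMA. RMA equalises signal between arrays, so a change in total RNA cannot be seen. No further normalization or filter was applied, and 62 control probe sets were left out of the test. Probe sets were named by the platform annotation: 41091 name 1 symbol, 1801 several and 11721 none, and 41037 of the first matched RefSeq by gene identifier. Suffixes _s_at and _x_at mark probe sets that can match several transcripts.

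The groups were fitted in R 4.3.3 with limma 3.58.1 (lmFit, eBayes, two-sided) over 54613 probe sets with Benjamini-Hochberg adjustment and a threshold of 0.05. Differences are USP48-labelled minus empty vector. The precision depends on the number of arrays and on the spread between them. Members, lists and tests were chosen with earlier results of these data known. Named are all members, up to 4 called genes per list by size (the 2 with the highest mean where none passed), and 3 genes like each called member and GLI1. Alternatives were quantile normalization, median centring, scaling on hybridization controls, an intensity trend with robust prior, a filter on dim probe sets, 1 probe set or the mean per gene, the replicate number as a block, each array left out, adjusted p under 0.01 and at least 1.5-fold.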

Additional observations from a re-analysis of the deposited data

How the results depend on the processing

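The 4 calls of GLI2 228537_at, PTCH1 209815_at, SUFU 222749_at and GPR161 230369_at held their direction and passed under every normalization, prior, dim filter, block and left-out array tried, but PTCH1, SUFU and GPR161 did not pass as means over probe sets, nor GPR161 with 1 probe set per gene. Counts with arrays left out in turn were 10101 to 12594 for all probe sets, 4 to 5 lower members, 0 higher members, and 8 to 10 higher and 16 to 20 lower probe sets of the other lists. With the replicate block 12702 probe sets passed, 5 lower members among them, and it changed no member's call; among the ligands and release proteins it called 1 higher. Same-numbered arrays did not all deviate together (r = −0.020, 0.11 and −0.018), and not every array correlated best with its own number. With 3 arrays per group this cannot decide whether same-numbered arrays shared a culture, which the labels do not say.

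Scaling on the hybridization controls lowers every difference, moving the median of all probe sets from 0.03 to −0.26: 23118 probe sets passed, with 13 lower members, and 3 higher and 38 lower probe sets of the other lists. It turned GLI1 to −0.12, GLI2 208057_s_at to −0.24, GLI3 205201_at and 1569342_at to −0.17, PTCH1 208522_s_at to −0.27, SMO to −0.16, SUFU 224201_s_at to −0.24 and 224202_at to −0.25, HHIP 237466_s_at to −0.066 and 230135_at to −0.27, GPR161 235961_at to −0.25, DISP1 to −0.10 and IHH to −0.28. At an adjusted p under 0.01, 8356 of all probe sets passed, with 4 lower members and 4 higher and 15 lower probe sets of the other lists. With at least 1.5-fold these were 5899, 1, 3 and 14. With 1 probe set per gene, 5897 genes passed, with 3 lower members and 5 higher and 8 lower genes of the other lists; averaging the probe sets of each gene gave 5411, 1, 4 and 6. That average put GLI3 at 0.063 and CSNK1A1 at −0.091, and quantile normalization put GPR161 214104_at at 0.041.

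Near 0 the sign turned with single arrays left out, none of these passing: GLI2 208057_s_at −0.087 to 0.16, GLI3 227376_at −0.15 to 0.039, PTCH1 208522_s_at −0.027 to 0.11, SUFU 224203_at −0.098 to 0.048, 224201_s_at −0.072 to 0.19 and 224202_at −0.075 to 0.17, HHIP 230135_at −0.12 to 0.10 and 223775_at −0.098 to 0.053, GPR161 214104_at −0.074 to 0.0029, 235961_at −0.0080 to 0.10 and 206971_at −0.11 to 0.014, and IHH −0.069 to 0.071. The causes of these changes were not tested beyond the construction of each alternative.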
